A study of Mus musculus with 8 samples.

Results

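Lcn2 and 9 other genes of the acute-phase and innate inflammatory response were followed in the hippocampus of mice given an anti-CD4 antibody, which binds a protein on the surface of helper T cells. The 10 genes (Lcn2, S100a8, S100a9, Serpina3n, Timp1, Cd14, Osmr, Cp, Hp and Nfkbia) are 10 of 22441 gene symbols on the array, and their 11 probes are 11 of 55681 probes. Lcn2 was chosen by its measured difference between these same groups, so its values are given as a description with no test. The other 9 genes were added to it as genes of the same kind of response, with earlier results of these data known. All 11 probes passed the filter on dim probes, since each exceeded background on 4 or more of the 8 arrays. The nearest to that limit were the dimmer Cp probe and the Hp probe, each above background on 5 arrays, and no probe of these genes lay outside it.

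Total RNA of the hippocampus was hybridised to one-colour Agilent arrays. The mice were C57BL6/J females of 8 weeks, with no further allele or transgene named in the labels, and all had spent 4 weeks in enriched housing, cages with added stimulation. One group had received the anti-CD4 antibody (n = 4) and the other a control antibody (n = 4). The sources used here give no antibody clone or dose and do not say whether tissue was pooled, and no mice in standard housing were analysed here. The labels do not tie the samples to separate animals. The p-values therefore rest on a spread between samples that may be technical. Signals are given as log2 relative to the 75th percentile of their own array, and differences are anti-CD4 minus control on that scale, so that a value of 1 is a doubling.

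Lipocalin 2, the product of Lcn2, is a small secreted protein that binds iron-loaded siderophores and so withholds iron from bacteria. In brain it is made by reactive astrocytes, endothelial and choroid plexus cells, and blood neutrophils store it in granules. Acute-phase genes are switched on by inflammatory cytokines, mainly through STAT3 downstream of the shared receptor chain gp130, through NF-κB downstream of Toll-like and interleukin-1 receptors, and through C/EBP factors. S100A8 and S100A9 form calprotectin, which binds zinc and calcium and is abundant in neutrophils and monocytes.

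The sequences before the start sites of 4 of the genes are shown because they are where such factors would act: Lcn2, the gene that the comparison started from, S100a8 and S100a9, whose signals moved together between arrays, and Nfkbia, the feedback inhibitor of NF-κB. Each is the 250 bases before the start in RefSeq (GRCm38.p6), printed 5′ to 3′ on the gene's strand, with motif matches in capitals. They lie at chr2:32387740-32387989 (minus strand), chr3:90668821-90669070 (plus strand), chr3:90695722-90695971 (minus strand) and chr12:55492648-55492897 (minus strand), in this order.
Lcn2: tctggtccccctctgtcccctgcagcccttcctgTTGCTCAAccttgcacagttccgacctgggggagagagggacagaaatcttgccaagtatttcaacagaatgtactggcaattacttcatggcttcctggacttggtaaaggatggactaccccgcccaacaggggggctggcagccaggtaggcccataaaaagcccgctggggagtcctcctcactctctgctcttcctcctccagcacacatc
S100a8: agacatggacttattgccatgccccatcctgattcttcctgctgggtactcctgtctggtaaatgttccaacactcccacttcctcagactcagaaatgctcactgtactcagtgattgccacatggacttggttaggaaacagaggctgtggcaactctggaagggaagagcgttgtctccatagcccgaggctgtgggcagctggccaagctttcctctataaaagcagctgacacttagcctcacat
S100a9: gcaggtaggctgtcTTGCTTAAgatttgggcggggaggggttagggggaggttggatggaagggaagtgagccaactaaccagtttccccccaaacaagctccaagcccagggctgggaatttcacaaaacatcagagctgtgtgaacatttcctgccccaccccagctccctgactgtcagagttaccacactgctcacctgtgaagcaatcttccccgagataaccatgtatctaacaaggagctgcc
Nfkbia: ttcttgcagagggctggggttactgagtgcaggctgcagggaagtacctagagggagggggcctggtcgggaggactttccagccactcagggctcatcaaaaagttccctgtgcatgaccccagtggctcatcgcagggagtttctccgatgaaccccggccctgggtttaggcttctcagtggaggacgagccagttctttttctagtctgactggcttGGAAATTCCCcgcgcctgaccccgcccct

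Windows were available for 8 of the 10 genes, and 3 motifs were searched on both strands of each window of 300 bases (250 before to 50 after the start): the STAT dyad TTCNNNGAA, the C/EBP motif TTGCNNAA and the NF-κB motif by its kappaB consensus. The C/EBP motif was found as TTGCTCAA in Lcn2, at bases 216 to 209 before the start, as TTGCTTAA in S100a9, at bases 236 to 229, and in 1 of the 2 Cp windows. A kappaB match was found in Nfkbia on the opposite strand, at bases 29 to 20. No window of the 8 genes held the STAT dyad. Of all 32851 windows, 10.8% held the C/EBP motif, 8.46% the kappaB consensus and 8.30% the STAT dyad. A match says only that these letters are there.

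The 8 arrays lay on 1 slide, with the anti-CD4 arrays in its first row and the controls in its second. Position on the slide and antibody therefore cannot be told apart. On an array, 51.1% to 54.3% of probes exceeded background clearly, and no probe was saturated. Probes with a spot flagged as an outlier numbered 106 to 132 on the anti-CD4 arrays and 74 to 85 on the control arrays. All 13 hippocampal neuron markers were detected. Their median difference was -0.28, with 3 higher and 10 lower. Choroid plexus signal varied widely between arrays. All 18 of its marker genes had higher means in the anti-CD4 group, with a median difference of 0.88. Centred over the 8 arrays, they averaged 1.82, -2.30, -3.25 and 1.78 on control arrays 1 to 4, and -2.45, 0.98, 2.29 and 1.12 on anti-CD4 arrays 1 to 4. In whole tissue, fewer cells of a type and less RNA per cell cannot be told apart.

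None of the 10 probes of the 9 genes other than Lcn2 passed an adjusted p of 0.05 in limma, and 0% of all 29406 probes tested did. The smallest adjusted p among all probes was 0.148. Of the 10 probes other than that of Lcn2, 7 were higher in the anti-CD4 group and 3 lower. Of all probes tested, 51.1% were higher. The median difference was 0.18 over these 10 probes and 0.24 over the 11 with Lcn2, against 0.00 over all probes tested. The 4 anti-CD4 arrays all lay above the 4 controls for 1 of these 10, that of Osmr, and for 3.77% of all probes tested. They did so too for Lcn2, which was chosen by its difference. None of the 11 lay entirely below the controls, as 4.43% of all probes did. Among the 10 probes other than Lcn2, 1 (Osmr) had an unadjusted p under 0.05 in limma and was higher, against 5.98% of all probes higher and 6.99% lower at that level. The median was 0.00 over the 7 probes that were well above background on all 8 arrays, and 0.15 over all 11 without anti-CD4 array 1.

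**Figure D1:**
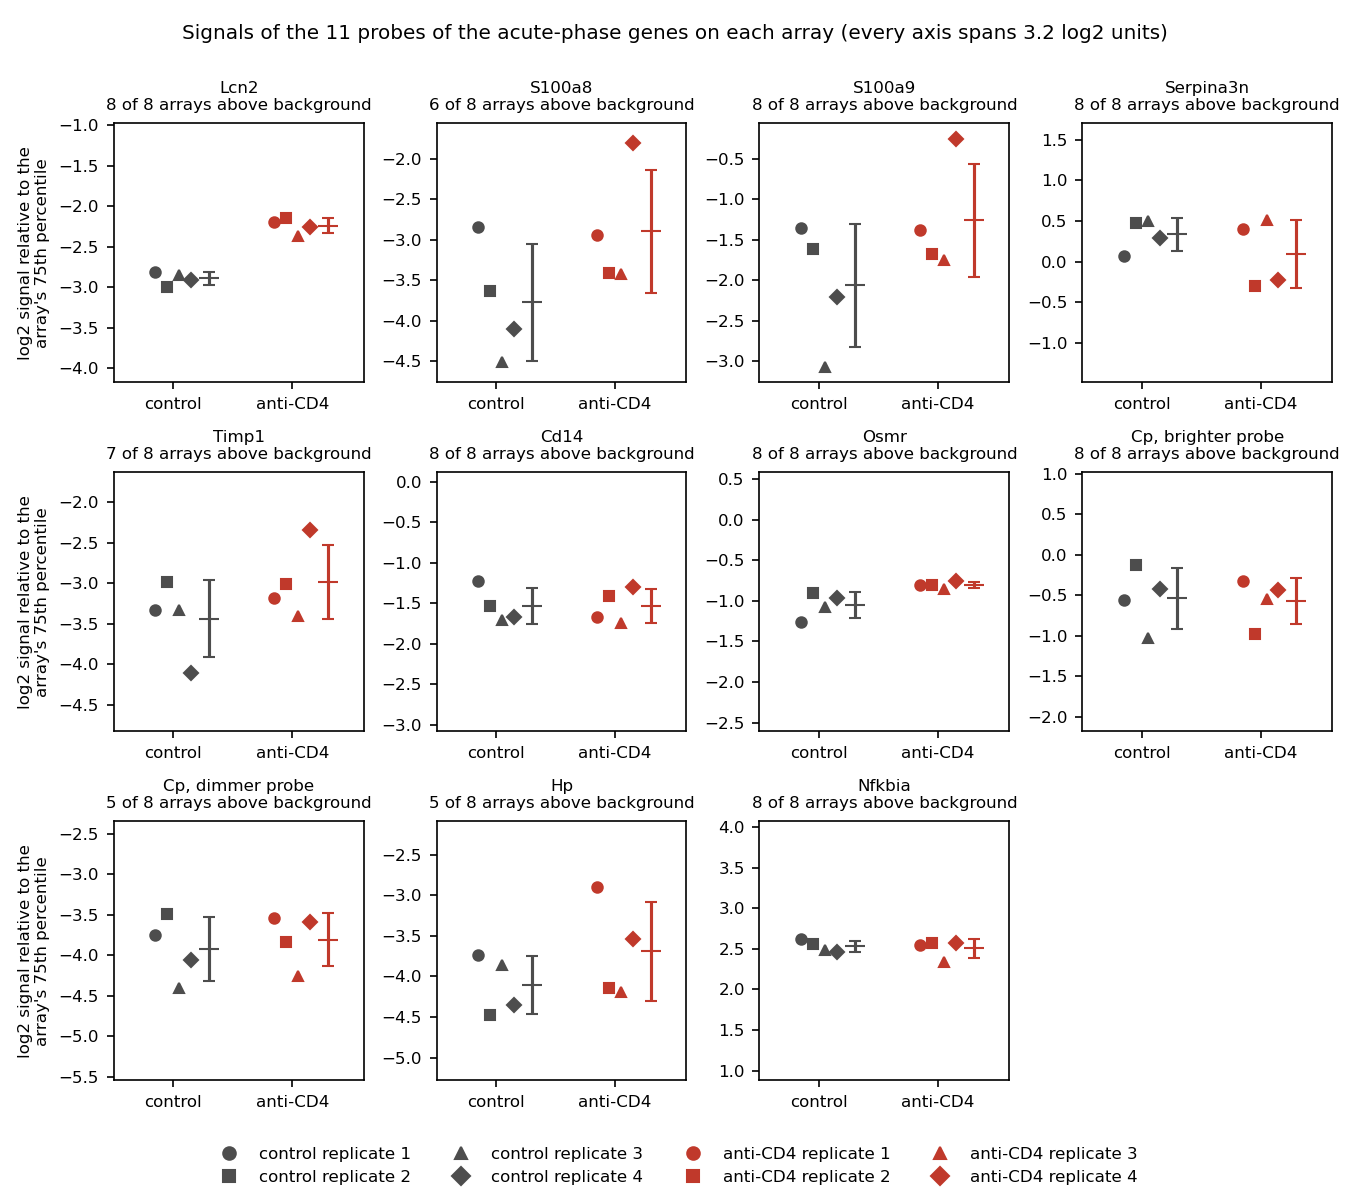
Log2 signal relative to the array's 75th percentile for each of the 11 probes, with 1 marker per array, control in grey and anti-CD4 in red, and the mean with SD (n = 4) beside each group. The groups are separate for Lcn2 and Osmr and overlap for the other 9 probes, and S100a8 and S100a9 order the arrays alike.

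Lcn2 was measured by 1 probe (A_55_P2070869, chr2:32240199-32240258 on the minus strand, mm9), well above background on all 8 arrays. Control arrays 1 to 4 read -2.82, -3.00, -2.84 and -2.90, and anti-CD4 arrays 1 to 4 read -2.20, -2.15, -2.36 and -2.26. Every anti-CD4 array was above every control array, and on this scale the gap between the groups was wider than the range within either. The means were -2.89 ± 0.08 and -2.24 ± 0.09 (SD, n = 4), a difference of 0.65 or 1.57-fold. Leaving out each array in turn gave differences of 0.61 to 0.69.

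The Lcn2 spots were dim, and the size of the difference depended on how the background was handled. The mean spot brightness before any correction was 276, 261, 267 and 309 on the control arrays and 304, 314, 295 and 313 on the anti-CD4 arrays. Control array 4 was thus as bright as the anti-CD4 arrays. Its local background was 78, against 59 to 64 on the other control arrays and 60 to 67.5 on the anti-CD4 arrays. After the software's background subtraction the processed signals were 131, 106, 103 and 97.8 in controls and 157, 172, 149 and 153 in the anti-CD4 group. With normexp background correction the difference was 0.32, and in the authors' deposited table it was 0.19. The 2 groups did not overlap on either scale but lay closer than on the processed signal. Normexp values were -2.28 to -2.04 in controls and -1.96 to -1.77 in the anti-CD4 group, so that the gap was narrower than the range within either group. In the authors' deposited table the values were 8.03 to 8.14 and 8.24 to 8.38, with a gap narrower than either range.

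**Figure D2:**
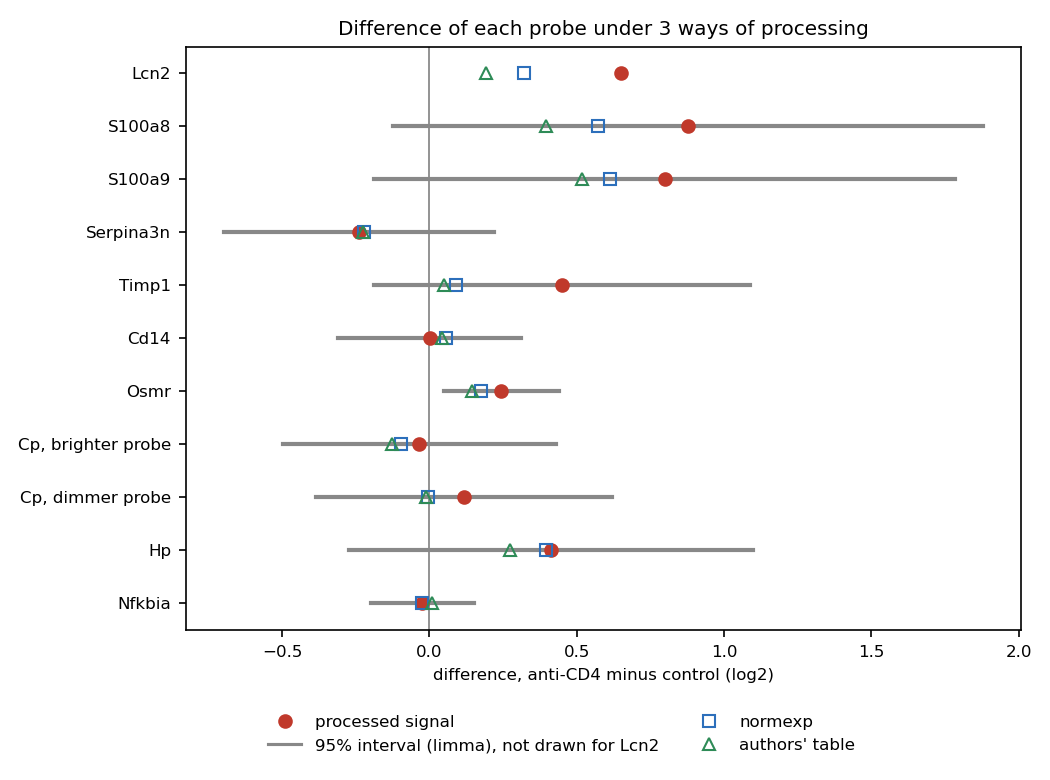
Difference between the groups (anti-CD4 minus control, log2) for each probe from the processed signal (circles, with the 95% interval of limma as a line, not drawn for Lcn2), with normexp background correction (squares) and in the authors' deposited table (triangles). The Lcn2 difference is 0.65, 0.32 and 0.19 in these, and the Osmr interval alone lies above 0.

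Genes that act with lipocalin 2 showed no common direction. Of 15 tested genes for its receptors and for iron handling, 6 were higher and 9 lower, with a median of -0.08, or -0.0033 without anti-CD4 array 2, and none passed the adjusted threshold in limma. Unadjusted p in limma was under 0.05 for 1 higher and 2 lower genes, against 5.98% of all probes higher and 6.99% lower. Slc22a17, a proposed lipocalin 2 receptor, had means of 7.66 ± 0.07 (control) and 7.78 ± 0.05 (anti-CD4; SD, n = 4). Its groups did not overlap, and the difference of 0.12 had an adjusted p of 0.457 in limma. Bdh2, a dehydrogenase put forward as a maker of the mammalian siderophore, differed by 0.56, also without overlap (adjusted p = 0.305, limma). Ireb2, an RNA-binding protein that senses iron, differed by -0.31 without overlap (adjusted p = 0.244, limma), and by -0.12 with normexp. Mc4r, the melanocortin receptor that lipocalin 2 can bind, differed by -0.44 and the iron transporter Slc11a2 by -0.21. A second Slc11a2 probe differed by 0.11. Mmp9, the protease that lipocalin 2 stabilises, and Ltf, the iron-binding lactoferrin, were well above background on no array.

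Red blood cell markers, taken as a list, were like Lcn2 higher on each anti-CD4 array than on any control array. The 8 tested ones, centred over the arrays, averaged -0.35 to -0.07 on control arrays and 0.09 to 0.27 on anti-CD4 arrays. Of the 8, 6 were higher and 2 lower, with a median of 0.46, and 51.1% of all probes tested were higher. None of the 8 passed the adjusted threshold in limma. Unadjusted p in limma was under 0.05 for 6, all higher, against 5.98% of all probes. The groups did not overlap for 5 higher and 1 lower, against 3.77% of all probes higher and 4.43% lower. Alas2, the erythroid enzyme of heme synthesis, differed by 0.63 and Hbb-bs, a hemoglobin gene with near-identical copies, by 0.70. Bpgm, an enzyme of red cell metabolism, was lower with a difference of -0.06, and its groups did not overlap. Ahsp was above background on no array and Slc4a1 on 1. By array, the list averaged -0.20, -0.35, -0.15 and -0.07 on control arrays 1 to 4 and 0.16, 0.09, 0.27 and 0.25 on anti-CD4 arrays 1 to 4. Within the anti-CD4 group the order ran against that of Lcn2, which was lowest on array 3 and highest on array 2. Within the control group array 2 was lowest for both. Over the 8 arrays Pearson r was 0.872, a value that includes the group difference by which Lcn2 was chosen. Neutrophil markers overlapped between the groups, and 9 of 16 were well above background on no array, among them Ngp, Ltf, Ctsg, Retnlg, Mmp8 and Cxcr2. The 6 tested ones averaged -0.22 to 0.23 on control and -0.26 to 0.08 on anti-CD4 arrays, with a median difference of -0.05. Endothelial markers averaged -0.31 to 0.04 on control and -0.03 to 0.18 on anti-CD4 arrays, and 11 of 14 were higher and 3 lower. Unadjusted p in limma was under 0.05 for 6 of the 14, all higher, against 5.98% of all probes higher. The groups did not overlap for 4, all higher, against 3.77% of all probes. None of the 14 passed the adjusted threshold in limma. Astrocyte markers averaged -0.10 to 0.02 and -0.02 to 0.08, with 6 of 9 higher. Choroid plexus markers were low on control arrays 2 and 3 and on anti-CD4 array 1, where Lcn2 read -3.00, -2.84 and -2.20. The part of red blood cells, endothelium, astrocytes or choroid plexus in the Lcn2 difference was not tested.

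**Figure D3:**
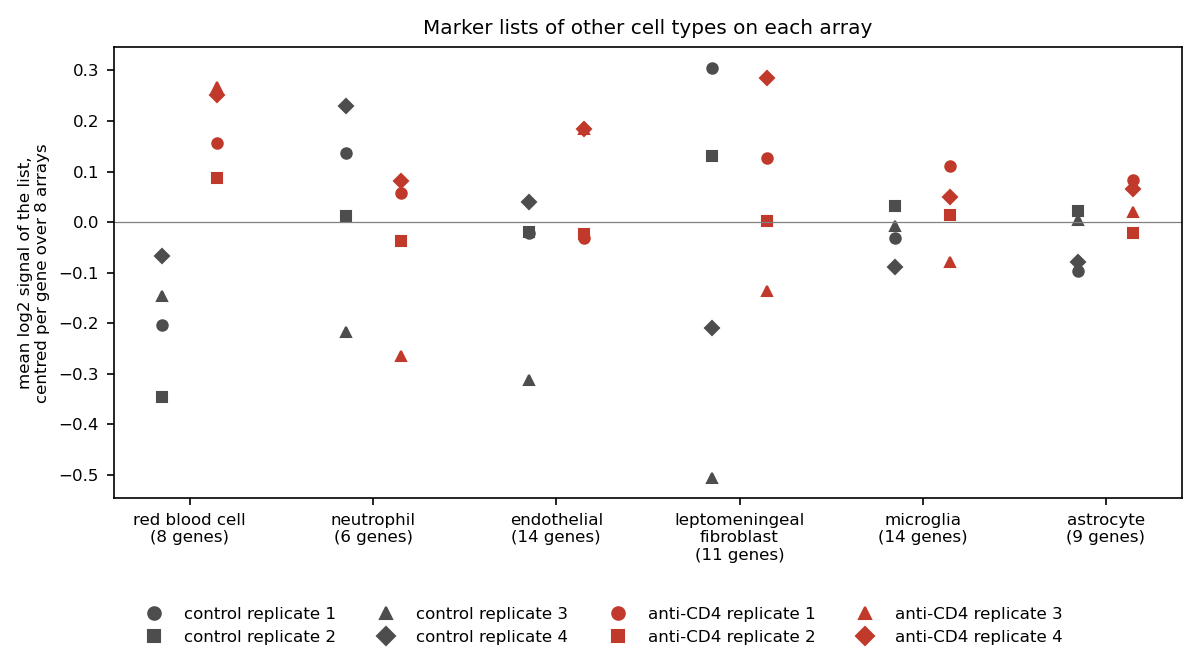
Mean log2 signal of the tested markers of 6 cell types on each array, each gene centred over the 8 arrays, control in grey and anti-CD4 in red. Red blood cell markers lie at -0.35 to -0.07 on control arrays and 0.09 to 0.27 on anti-CD4 arrays, and the other 5 lists overlap between the groups.

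S100a8 and S100a9 had larger differences than Lcn2 and a far wider spread, with overlapping groups. The S100a8 probe (A_51_P256827, chr3:90473778-90473837, plus strand) was above background on 2 control and 4 anti-CD4 arrays. Control arrays 1 to 4 read -2.84, -3.64, -4.51 and -4.10 and anti-CD4 arrays 1 to 4 read -2.95, -3.41, -3.42 and -1.81. The groups overlapped, with control array 1 above 3 of the anti-CD4 arrays and anti-CD4 array 4 above all others. The difference was 0.88 ± 0.44 (SE; 95% interval -0.12 to 1.88; adjusted p = 0.436, limma). Without anti-CD4 array 4 it was 0.52.

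The S100a9 probe (A_55_P1998471, chr3:90496573-90496632, minus strand) was above background on all 8 arrays. It read -1.36, -1.61, -3.06 and -2.21 on control arrays 1 to 4 and -1.38, -1.67, -1.75 and -0.25 on anti-CD4 arrays 1 to 4. The order was close to that of S100a8, with control array 3 lowest and anti-CD4 array 4 highest for both genes. The S100a9 difference was 0.80 ± 0.43 (SE; 95% interval -0.19 to 1.78; adjusted p = 0.467, limma), and 0.46 without anti-CD4 array 4.

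Across the 8 arrays the signals of the calprotectin pair had a Pearson r of 0.969 (exact permutation p = 0.000223, adjusted p = 0.0212 over 95 relations) and a Spearman rho of 0.929 (exact permutation p = 0.00223, adjusted p = 0.0707). Without control array 3 and anti-CD4 array 4, the 2 arrays farthest from the median of S100a8, r was 0.937. With the group means taken out, r was 0.957, which placed S100a8 first for S100a9 among 19337 named probes and S100a9 at rank 4 for S100a8. These are descriptions over 8 arrays, with the members of each group sharing its mean. With group means taken out, the r of Lcn2 was 0.05 with S100a8 and -0.11 with S100a9.

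**Figure D4:**
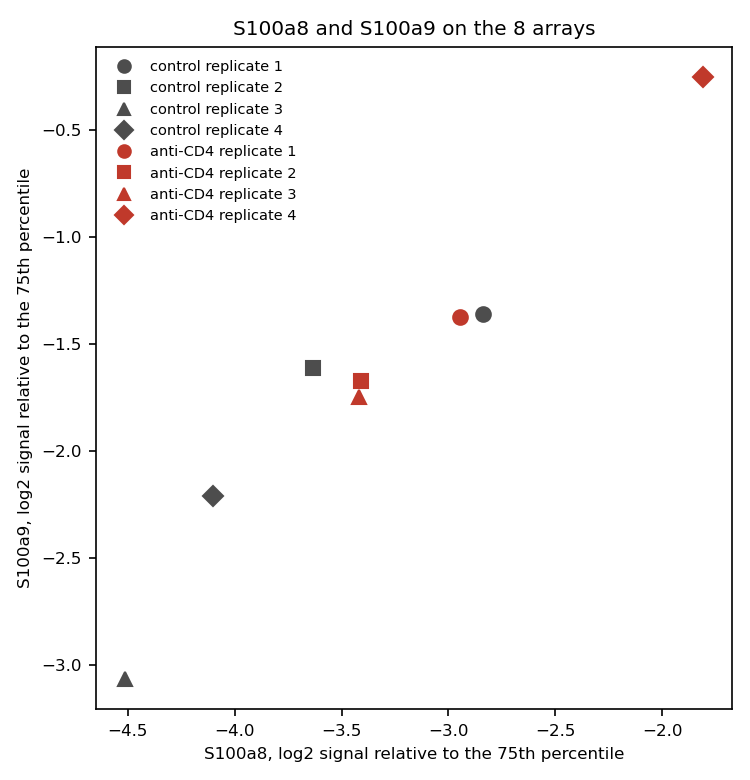
S100a9 against S100a8 on the 8 arrays, both as log2 signal relative to the array's 75th percentile, with 1 marker per array. The arrays run along 1 line (Pearson r = 0.969), with control array 3 at its lower end, anti-CD4 array 4 at its upper end and control array 1 among the anti-CD4 arrays.

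The pair was also compared with markers of the membranes around the brain. The 11 leptomeningeal fibroblast markers averaged -0.51 to 0.31 on control arrays and -0.14 to 0.28 on anti-CD4 arrays. Their Pearson r with S100a9 was 0.898 (exact permutation p = 0.00104, adjusted p = 0.0495 over 95 relations) and their Spearman rho 0.952 (exact permutation p = 0.00114, adjusted p = 0.0707). Without control arrays 3 and 4, r was 0.677 (exact permutation p = 0.128), so the relation rests on those arrays. With S100a8, r was 0.857 (exact permutation p = 0.00734, adjusted p = 0.232), and 0.671 without the same arrays (exact permutation p = 0.1375). Ly6g, a neutrophil surface marker, was above background on 6 arrays and differed by 0.03, and the monocyte markers Ccr2 and Plac8 were above background on none. Of the 2 tested monocyte markers, Fn1 differed by 0.33 without overlap (adjusted p = 0.219, limma) and Vcan by -0.11. The part of meningeal tissue or of blood leukocytes in the S100a8 and S100a9 signals was not tested. Of 11 other tested genes with S100 names, 7 were higher and 4 lower with a median of 0.06, and none passed the adjusted threshold in limma. The largest differences were -0.22 for S100pbp, which encodes a protein that binds an S100 protein, -0.15 for S100a4, 0.15 for S100b, the S100 protein of astrocytes, and 0.11 for S100a16.

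Cd14, which hands bacterial lipopolysaccharide to the Toll-like receptor 4 complex, did not differ beyond its spread. Its probe (A_51_P172853, chr18:36884969-36885028, minus strand) was above background on all 8 arrays. It read -1.22, -1.53, -1.71 and -1.67 on control arrays 1 to 4 and -1.67, -1.41, -1.74 and -1.30 on anti-CD4 arrays 1 to 4. The groups overlapped almost fully, and the difference of 0.00 had a 95% interval of -0.31 to 0.31 (adjusted p = 0.997, limma). Of 15 tested Toll-like receptor partners 6 were higher and 9 lower, with a median of -0.03, and none passed the adjusted threshold in limma. Tlr4 itself differed by 0.06 and its co-receptor Ly96 by -0.15. Larger values were found for Tlr1, at 0.72 (adjusted p = 0.441, limma), and Ly86, which pairs with a Toll-like protein of B cells, at -0.26. The Tlr1 probe was above background on 2 control and 4 anti-CD4 arrays. Its difference was 0.44 with normexp and 0.26 in the authors' deposited table. The adaptor Ticam1 differed by -0.17. Lbp, the lipopolysaccharide-binding protein, differed by 0.55 with SDs of 1.50 and 1.13. Its values were 0.81, -1.63, -2.08 and 0.63 on control arrays and -1.44, -0.12, 1.31 and 0.17 on anti-CD4 arrays, high and low on the same arrays as the choroid plexus markers, of which it is 1.

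Osmr, the receptor chain that joins gp130 to bind oncostatin M, was the other gene whose groups did not overlap. Its probe (A_51_P319460, chr15:6763686-6763745, minus strand) was above background on all 8 arrays. It read -1.26, -0.90, -1.07 and -0.96 on control arrays 1 to 4 and -0.80, -0.80, -0.86 and -0.76 on anti-CD4 arrays 1 to 4. The anti-CD4 arrays lay close together and just above the highest control, array 2. The difference was 0.24 ± 0.086 (SE; 95% interval 0.05 to 0.44), with an unadjusted p of 0.0203 and an adjusted p of 0.305 in limma. With normexp it was 0.18 and in the authors' deposited table it was 0.15, and on both of these scales the groups overlapped. Of the 10 probes tested, Osmr alone had an interval that did not include 0.

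Other genes of the gp130 pathway lay on both sides of 0. Of 24 tested genes 16 were higher and 8 lower, with a median of 0.04, and none passed the adjusted threshold in limma. Unadjusted p in limma was under 0.05 for 1 higher and 1 lower gene, against 5.98% of all probes higher and 6.99% lower. The gp130 gene Il6st differed by 0.04 and Stat3 by 0.02, while a second Stat3 probe differed by -0.16. Socs3, the feedback inhibitor that STAT3 induces, had means of -1.49 ± 0.30 (control) and -1.11 ± 0.38 (anti-CD4; SD, n = 4), a difference of 0.38 with an adjusted p of 0.471 in limma. Stat5b differed by 0.43 without overlap (adjusted p = 0.245, limma), and 0.18 on its second probe. Bcl3, an IκB-like co-regulator induced by STAT3, differed by 0.35. The cytokines Il6, Lif, Osm and Clcf1 were well above background on no array.

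Nfkbia encodes IκBα, which holds NF-κB in the cytoplasm and is itself induced by NF-κB. Its probe (A_51_P295192, chr12:56590945-56591440, minus strand, a span longer than the probe) was above background on all 8 arrays. It read 2.62, 2.56, 2.49 and 2.46 on control arrays 1 to 4 and 2.55, 2.57, 2.34 and 2.57 on anti-CD4 arrays 1 to 4. The groups overlapped, and the difference of -0.02 had a 95% interval of -0.20 to 0.15 (adjusted p = 0.916, limma), the narrowest of the 10 tested probes. Of 26 tested genes of the NF-κB pathway 14 were higher and 12 lower, with a median of 0.02, and none passed the adjusted threshold in limma. Tnfaip3, another NF-κB-induced inhibitor, differed by 0.05. Tnfrsf1a, the main receptor for tumour necrosis factor, differed by 0.28 without overlap (adjusted p = 0.228, limma) and by 0.21 on its second probe. Nfkbie, a further inhibitor of NF-κB, differed by -0.27, Il1r1, the interleukin-1 receptor, by -0.35, and the chemokine Cxcl10 by -0.36. The last was -0.11 with normexp. Il1b, Tnf, Cxcl1 and Rel were well above background on no array.

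Serpina3n, a secreted inhibitor of serine proteases and a marker of reactive astrocytes, was lower on 2 of the 4 anti-CD4 arrays. Its probe (A_51_P159453, chr12:105651918-105651977, plus strand) was above background on all 8 arrays. It read 0.07, 0.48, 0.50 and 0.29 on control arrays 1 to 4 and 0.40, -0.30, 0.51 and -0.23 on anti-CD4 arrays 1 to 4. Anti-CD4 arrays 2 and 4 were below every control, and array 1 lay within the control range and array 3 just above it. The difference was -0.24 ± 0.20 (SE; 95% interval -0.70 to 0.22; adjusted p = 0.629, limma). It was -0.11 without anti-CD4 array 2 and -0.38 without anti-CD4 array 3. Of 8 other tested genes of the reactive astrocyte programme 5 were higher and 3 lower, with a median of 0.07, and none passed the adjusted threshold in limma. Gfap, the astrocyte filament protein, differed by -0.25 and by -0.30 and -0.15 on its other probes. Aspg differed by 0.18 and the heat shock protein gene Hspb1 by 0.14. Serpina3g, a near relative of Serpina3n, differed by -0.42 (adjusted p = 0.270, limma), and probes of this gene family may read more than 1 member.

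Timp1, the inducible tissue inhibitor of metalloproteinases, was measured by a dim probe (A_55_P1985850, chrX:20451802-20451861, plus strand) that was above background on 3 control and 4 anti-CD4 arrays. It read -3.33, -2.98, -3.33 and -4.10 on control arrays 1 to 4 and -3.19, -3.01, -3.41 and -2.35 on anti-CD4 arrays 1 to 4. Control array 4 was lowest and anti-CD4 array 4 highest, and the other 6 arrays were intermixed. The difference was 0.45 ± 0.28 (SE; 95% interval -0.19 to 1.09; adjusted p = 0.519, limma). It was 0.23 without control array 4, 0.09 with normexp and 0.05 in the authors' deposited table. Among 14 tested genes of tissue inhibitors and matrix proteases 8 were higher and 6 lower, with a median of 0.04, and none passed the adjusted threshold in limma. Timp2, which is made at a steady level in neurons and glia, differed by 0.46 on its brightest probe (adjusted p = 0.295, limma) and by 0.09 on the other. Timp3 differed by 0.23, the gelatinase gene Mmp2 by 0.44 and the aggrecanase gene Adamts4 by -0.21.

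Cp, the copper-carrying ferroxidase that lets cells export iron, had 2 probes. The brighter (A_55_P2111302, chr3:19889071-19889130) was above background on all 8 arrays. It read -0.56, -0.13, -1.03 and -0.43 on control arrays 1 to 4 and -0.33, -0.97, -0.55 and -0.43 on anti-CD4 arrays 1 to 4. The groups overlapped fully, with a difference of -0.03 (95% interval -0.50 to 0.43; adjusted p = 0.957, limma). The dimmer probe (A_55_P2087607, chr3:19907511-19907570), above background on 2 control and 3 anti-CD4 arrays, read -3.75, -3.49, -4.40 and -4.06 on control arrays and -3.54, -3.84, -4.26 and -3.59 on anti-CD4 arrays. Its difference was 0.12 (95% interval -0.38 to 0.62; adjusted p = 0.845, limma). Control array 3 was lowest and control array 2 highest on both probes.

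Hp encodes haptoglobin, which binds free hemoglobin. Its probe (A_55_P2048607, chr8:112099045-112099104, minus strand) was above background on 2 control and 3 anti-CD4 arrays. It read -3.74, -4.47, -3.86 and -4.35 on control arrays 1 to 4 and -2.89, -4.14, -4.19 and -3.54 on anti-CD4 arrays 1 to 4. The groups overlapped, with anti-CD4 array 1 highest. The difference was 0.41 ± 0.30 (SE; 95% interval -0.27 to 1.10; adjusted p = 0.578, limma), and 0.15 without anti-CD4 array 1. In the authors' deposited table the Hp difference was 0.27 and the groups did not overlap. Of 9 tested partners in heme and hemoglobin clearance 4 were higher and 5 lower, with a median of -0.01, and none passed the adjusted threshold in limma. Lrp1, a scavenger receptor that takes up hemopexin, differed by 0.25 without overlap (adjusted p = 0.331, limma). The choline and heme transporter genes Flvcr2 and Flvcr1 differed by 0.20 and -0.13, and Blvrb, a biliverdin reductase, by -0.09. Cd163, the macrophage receptor for the haptoglobin-hemoglobin complex, was well above background on no array.

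Most other acute-phase plasma protein genes, which the liver makes, were not detectable in these arrays. Of 33 such genes 19 were well above background on no array, among them Saa3, Crp, Orm1, Apcs and the fibrinogen genes Fga, Fgb and Fgg, and 8 were tested. Of 10 hepatocyte markers, 4 were likewise above background on none, among them Alb, Apoa1 and Apob. The 4 that were tested had a median difference of -0.07, with 2 higher and 2 lower. Of the 8 tested acute-phase genes, 6 were higher and 2 lower, with a median of 0.14, and none passed the adjusted threshold in limma. The median was -0.04 without control array 4 and 0.31 without control array 1. Unadjusted p in limma was under 0.05 for 2 higher and 1 lower, against 5.98% of all probes higher and 6.99% lower. Lrg1, a secreted glycoprotein of endothelium and neutrophils, had means of -2.31 ± 0.35 (control) and -1.66 ± 0.34 (anti-CD4; SD, n = 4). Its difference of 0.64 had an adjusted p of 0.281 in limma, and control array 3 was above anti-CD4 array 3. Vwf, the von Willebrand factor of endothelium, differed by 0.52 (adjusted p = 0.305, limma), and Serpina3g by -0.42. Saa1 differed by -0.14.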

How the data were processed

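Spots of 8 one-colour arrays were read from the deposited scanner files, whose processed signal is an intensity that Feature Extraction 10.7.3.1 had background-subtracted and detrended, per the file headers (design 028005, mm9). The authors' deposited table holds log2 values of the same probes, and the submitters' processing notes name limma. Control spots were left out. Spots flagged as outliers were left out unless every spot of the probe was flagged, and spots of a probe were averaged. Values are log2 of the processed signal minus the array's 75th percentile. Probes well above background on 4 or more of 8 arrays (29406 of 55681) were fitted with lmFit and eBayes of limma 3.58.1 (R 4.3.3), with Benjamini-Hochberg adjustment over all of them and a threshold of 0.05. The fit was tested on simulated data. A gene in a list is its brightest tested probe. Normexp used an offset of 50. Correlations have exact two-sided permutation tests (scipy 1.17.1). The number of arrays limits the precision. All members and lists were chosen with earlier results of these data known. Of each list, up to 4 tested genes with the largest absolute difference were named, with fixed partner genes and, of the marker lists, genes chosen after their values were seen. Some genes taken by these rules are not reported here. Probe annotation to exons was not used here.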

Additional observations from a re-analysis of the deposited data

Results flagged for a closer look

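On the Nfkbia probe, anti-CD4 array 3 read 2.34, below the other 3 anti-CD4 arrays at 2.55 to 2.57, and its gap to them was 0.907 of the group's range. It was the only 1 of 62 groups examined for a far array, where chance gives about 1 in 20. Without that array the difference was 0.03 in place of -0.02.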

How the results depend on the processing

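No probe of the 9 genes other than Lcn2 passed the adjusted threshold of limma under any of 19 settings. Over all probes tested, 2 passed in the authors' deposited table, 2 with trend and robust eBayes and 2 without anti-CD4 replicate 3, and 0 in the other settings. The Lcn2 difference of 0.65 was 0.32 with normexp background correction and 0.19 in the authors' deposited table; the other settings gave 0.61 to 0.69. The median of the 11 probes, 0.24, was 0.0014 over probes above background on all 8 arrays and 0.0509 in the authors' deposited table, and 0.15 to 0.29 with each array left out. Small differences turned sign. For the brighter Cp probe it was 0.0209 with array weights and -0.198 to 0.102 with each array left out. For the dimmer Cp probe it was -0.0034 with normexp, -0.013 in the authors' deposited table and -0.0400 to 0.268 with each array left out. For Nfkbia it was 0.0096 with median centring, 0.0088 in the authors' deposited table, 0.0237 with array weights and -0.0487 to 0.0319 with each array left out. For Cd14 it was -0.0744 to 0.105 with each array left out. With 1 array left out, list medians ranged from -0.04 to 0.31 for the other acute-phase plasma proteins, -0.09 to -0.0033 for Lcn2 receptors and iron handling, -0.06 to 0.03 for NF-κB, -0.07 to 0.01 for the Toll-like receptor partners and -0.08 to 0.02 for heme clearance. With the replicate block, 0 probes passed and the smallest adjusted p among the genes other than Lcn2 was 0.515 (limma). The labels do not say whether shared numbers pair the arrays, and arrays with the same number lay in the same slide column. Deviations of same-numbered arrays correlated at -0.445, -0.283, -0.313 and 0.280, which does not settle it. The cause of these changes was not tested.

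The probes of S100a8, Timp1 and Hp and the dimmer Cp probe were above background on 5 to 7 of the 8 arrays. With normexp the Timp1 difference was 0.09 in place of 0.45, and that of Hp 0.40 in place of 0.41.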

Other observations

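The named probes whose deviations from the group means were most like those of Lcn2 over the 8 arrays were Pnpla6 (r = 0.988), Slc45a1 (r = 0.984), Tmem44 (r = 0.976), Oog2 (r = 0.975) and Tspyl2 (r = 0.974), among 19337 compared. Their own differences between the groups were -0.09 to 0.16. For Serpina3n they were Cblb (r = 0.991), Ybx3, Cfap100, Sec24d and Tra2a (r = 0.983). Over the 10 genes, the r of the most like probe was 0.957 to 0.991. Among the genes themselves, deviations of Cd14 correlated at 0.79 with those of Nfkbia and at -0.84 with those of Serpina3n.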
